A study of Mus musculus with 32 samples.

Results

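The liver and the 3 fat depots of wild-type mice on a high-fat diet (HFD) were compared gene by gene, using the 16 wild-type arrays of a series of 32. Members were the 4 wild-type liver arrays and, joined to them by gene symbol, the 12 wild-type arrays of epididymal white fat (eWAT), inguinal white fat (iWAT) and interscapular brown fat (BAT), 4 of each. All mice were male C57BL/6J *Gpr146*+/+ littermates of whole-body *Gpr146*-/- mice, 20 weeks old, fed HFD for 3 months and fasted overnight before tissues were collected. The other 16 arrays, from the *Gpr146*-/- littermates given the same diet and fast, were used only to repeat the comparison in other mice. The series was made to ask what loss of GPR146, a G protein-coupled receptor, changes in metabolic tissues, and each array is a different mouse within its tissue. The sample labels give a mouse number in each tissue, but whether the same number marks the same mouse in different tissues is not stated. Whole pieces of tissue were measured, so that every value mixes the cell types present. Fat content of the liver was not measured on the arrays, and no chow-fed or fed mice were included, so differences between tissues hold for this diet and fast only.

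Liver and fat divide the handling of lipid between them. Hepatocytes, the main cells of the liver, make most plasma proteins, bile acids and very-low-density lipoprotein (VLDL), release glucose and ketone bodies in fasting and clear ammonia through the urea cycle. Adipocytes store triglyceride in a large droplet, take up fatty acids through lipoprotein lipase, release them under adrenergic control and secrete hormones such as leptin and adiponectin, while brown adipocytes burn fatty acids for heat.

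Values are log2 expression, 1 per gene symbol and array, on a scale common to the 16 arrays after quantile normalization, where the median gene is at 3.17 and 5% of genes are below 1.48. The files hold no detection calls, so a value near this floor is not known to lie above background. The 4 tissues were deposited as separate tables with medians from 2.82 to 2.85 in BAT to 3.65 to 3.70 in iWAT, and tissue and table cannot be told apart. As deposited, the median difference over all genes, liver minus depot, was -0.15 for eWAT, -0.43 for iWAT and 0.05 for BAT, and normalization brought it to 0.01, 0.01 and -0.03. A gene was called when limma, which fits linear models and shares information on variance between genes, gave a Benjamini-Hochberg adjusted p below 0.05 over 24646 genes and a log2 difference of at least 1. It was called higher or lower in liver only when this held in the same direction against every depot, and the smallest of its 3 differences is called its margin.

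Marker genes bore out the tissue labels, and 4 fat arrays stood apart. All 9 hepatocyte markers were higher in liver than in every depot and all 7 general adipocyte markers were lower. The mean of 5 B lymphocyte markers was 8.06 and 8.0 in iWAT 1 and 2 and between 2.08 and 2.61 in the other 14 arrays. The mean of 7 skeletal muscle markers was 6.53 and 7.67 in BAT 2 and 3, 4.39 in iWAT 4 and at most 3.20 elsewhere. Without these 2 iWAT arrays and 2 BAT arrays, 1418 genes were called higher and 1392 lower in liver, close to the counts with them.

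Liver set itself apart in both directions. In all, 1411 genes (5.73% of all tested) were higher in liver than in every depot and 1385 (5.62%) were lower. The divide depends in part on scale, since the values as deposited, with each table on its own scale, gave 1105 higher and 1648 lower. By depot, liver was higher for 2602 genes (10.6%) and lower for 3186 (12.9%) against eWAT, higher for 2588 (10.5%) and lower for 3313 (13.4%) against iWAT, and higher for 2120 (8.60%) and lower for 2745 (11.1%) against BAT, so that 23.5%, 23.9% and 19.7% of genes differed from eWAT, iWAT and BAT in either direction. BAT was also the depot nearest to liver across genes, with a correlation of tissue means of 0.797 against 0.755 for eWAT and 0.761 for iWAT, a description over genes, which are not independent. The sides differed in shape, since 349 liver-high genes but 50 liver-low genes had a margin of at least 4 in size. The median margin was 2.05 for liver-high and -1.52 for liver-low genes. All 4 livers lay above all 12 fat arrays for 15.5% of genes and below them for 16.7%.

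**Figure D1:**
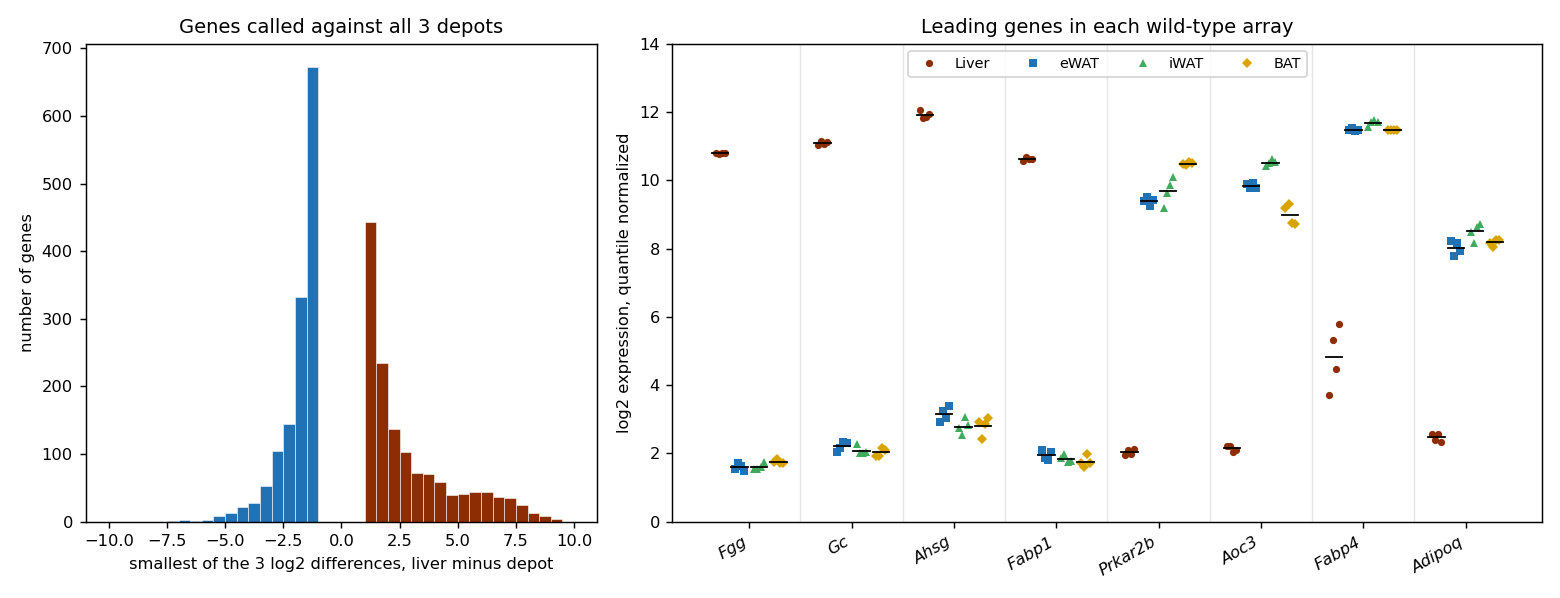
Left, the number of genes (y axis) by their smallest log2 difference between liver and the 3 depots (x axis) for the 1411 genes higher (brown) and 1385 genes lower (blue) in liver. Right, log2 expression of 4 leading genes of each side in the 16 wild-type arrays, with a point for each array and a line at each tissue mean; only *Fabp4* varies visibly among the livers, from 3.72 to 5.78.

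The 12 genes with the largest margins above fat all encode proteins made in quantity by hepatocytes. They were *Mup20*, *Mug1*, *Mup3*, *Fgg*, *Serpina1c*, *Gc*, *Serpina1d*, *Ahsg*, *Ttr*, *Fgb*, *Fabp1* and *Hrg*, with margins from 9.23 down to 8.54. *Fgg*, the gamma chain of fibrinogen, measured 10.80, 10.76, 10.80 and 10.81 in livers 1 to 4 and between 1.48 and 1.83 in the 12 fat arrays. Its smallest difference, against BAT, was 9.04 (SE 0.07, adjusted p = 3.08e-21). In each depot the mean of all 12 lay below the median gene, where a value is not known to lie above background, so the margins are differences on the array scale and their order carries no more than that. The spread among the 4 livers was small beside this gap, and the same held for *Gc*, the vitamin D carrier, at 11.03, 11.17, 11.06 and 11.14 in liver and 1.93 to 2.34 in fat. *Ahsg*, which encodes fetuin-A, measured 12.05, 11.82, 11.87 and 11.94 in liver and 2.43 to 3.38 in fat. *Fabp1*, the fatty acid carrier of the hepatocyte cytosol, measured 10.58, 10.69, 10.61 and 10.61 against 1.60 to 2.09. *Mup* and *Serpina1* genes are families of near-identical copies, and how probes were shared among them is not stated, so the value of a single member is uncertain.

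Of 22 measured plasma proteins, chosen for the list as made by hepatocytes, 20 were liver-high. The median member differed by 7.54 from eWAT, 7.45 from iWAT and 7.46 from BAT, where all genes had medians of 0.01, 0.01 and -0.03. *Alb*, serum albumin, measured 11.87, 12.05, 12.05 and 12.05 in liver, at or near the ceiling of the common scale, 12.05, so that its margin of 7.06 is limited by it. It was 3.80, 3.69, 4.15 and 4.37 in eWAT and 5.001, 4.53, 5.40 and 4.84 in iWAT but 2.34, 2.17, 2.35 and 2.48 in BAT, so that both white depots lay above BAT. The remaining 2 members were transferrin and haptoglobin. *Trf*, the iron carrier, measured 11.58, 11.28, 11.28 and 11.39 in liver and 10.67, 10.52, 10.56 and 10.56 in eWAT, a difference of 0.80 (95% confidence interval 0.52 to 1.09), but 7.49, 6.70, 7.14 and 7.18 in BAT. *Hp*, which binds free haemoglobin, measured 11.19, 10.81, 10.99 and 11.19 in liver and 9.41, 9.35, 10.12 and 10.99 in iWAT, where the highest array overlapped the livers. *Rbp4*, the retinol carrier that adipocytes are also known to secrete, was liver-high with a margin of 3.56, at 10.71, 10.73, 10.66 and 10.67 against 6.18 to 7.43 in fat.

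Of 17 genes for apolipoproteins and VLDL assembly, 14 were higher in liver than in every depot and 1 was lower. The list's median differences from eWAT, iWAT and BAT were 5.73, 5.83 and 5.88. *Apob*, the structural protein of VLDL, measured 10.81, 10.83, 10.83 and 10.76 in liver and 1.78 to 2.71 in fat, a margin of 8.25. *Apoa2*, a protein of high-density lipoprotein, had a margin of 8.05. *Apoc1*, an inhibitor of lipoprotein uptake, was nearer to liver in BAT (9.68, 9.19, 9.70 and 9.45) than in eWAT (5.73, 5.34, 5.59 and 5.51) or iWAT (5.06, 4.95, 5.94 and 6.24), with 10.97, 10.87, 10.89 and 10.94 in liver. *Apoe*, the ligand for remnant uptake, measured 7.32, 7.39, 7.41 and 7.42 in liver and 7.35, 7.12, 7.73 and 7.42 in iWAT, where the arrays overlapped. The difference there was -0.02 (95% confidence interval -0.24 to 0.20), against 1.20 for eWAT. The member that went the other way was *Pltp*, the phospholipid transfer protein, at 6.92, 6.32, 6.96 and 6.65 in liver, 8.40, 8.69, 8.49 and 8.54 in BAT, 10.39, 10.38, 10.75 and 10.56 in iWAT and 11.19, 11.17, 11.28 and 11.22 in eWAT. Every liver lay below every fat array for *Pltp*, and its margin was -1.82 (adjusted p = 1.8e-09 against BAT). On within-array percentile ranks its margin of -7.51 points was short of the minimum of 10.

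Coagulation factors were liver-high in 14 of 16 cases. Median differences were 6.85, 6.78 and 6.68 from eWAT, iWAT and BAT. *F2*, prothrombin, measured 10.08, 10.06, 10.05 and 10.02 in liver and 1.49 to 2.09 in fat. *F13b*, the carrier subunit of factor XIII, measured 8.38, 8.30, 8.33 and 8.40 against 1.55 to 1.80. *F7*, which starts the extrinsic pathway, was called against iWAT and BAT but not against eWAT, since eWAT measured 7.27, 6.76, 7.04 and 6.89 beside 7.87, 7.55, 7.69 and 7.54 in liver. Its difference from eWAT was 0.67 (SE 0.15), below the minimum of 1, although no eWAT array reached a liver.

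Complement divided by component. Of 23 members, 17 were higher and 1 lower in liver than in every depot. By depot, 5 were lower in liver than in eWAT, 4 than in iWAT and 1 than in BAT. The median over its members was 2.22, 3.63 and 4.94 for eWAT, iWAT and BAT. The liver-high members included *Hc*, which encodes C5, at 9.88, 9.81, 9.88 and 9.85 against 1.64 to 2.43. *C3*, the central component, measured 11.10, 10.97, 11.14 and 11.05 in liver and 10.63, 10.67, 10.59 and 10.63 in eWAT, and its difference of 0.43 from eWAT was not called. *Cfd*, the protease adipsin, was the 1 member lower in liver than in every depot, at 4.64, 4.98, 4.99 and 5.29 in liver. It measured 9.70, 9.37, 9.95 and 9.59 in BAT, 10.86, 9.93, 10.86 and 10.83 in iWAT and 9.21, 7.08, 8.59 and 8.41 in eWAT. Its margin was -3.35 and every liver lay below every fat array.

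All 18 genes of bile acid synthesis and transport were higher in liver than in every depot. Against eWAT, iWAT and BAT the median member differed by 5.88, 6.11 and 5.83. *Cyp7a1*, the rate-limiting enzyme of bile acid synthesis, measured 8.54, 7.42, 8.54 and 8.66 in liver and 1.74 to 2.33 in fat. Liver 2 was lowest, by more than 1 log2 unit from the next, and still far above fat. *Slc10a1*, the carrier that takes bile acids from blood, measured 9.78, 9.83, 9.70 and 9.88 against 1.84 to 2.17, and *Slco1b2*, another uptake carrier, had a margin of 8.27. *Abcb11*, the pump that exports bile salts into bile, had a margin of 5.85. *Cyp27a1*, the mitochondrial sterol hydroxylase of the alternative pathway, was measured at 5.22 to 6.85 in fat and 9.04, 8.79, 8.79 and 8.71 in liver, with a margin of 2.23.

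Urea cycle and amino acid breakdown genes were liver-high in 22 of 23 cases. The median over its members was 6.09, 6.30 and 6.17 for eWAT, iWAT and BAT. *Cps1*, which fixes ammonia at the entry to the cycle, measured 10.44, 9.999, 10.20 and 10.13 in liver and 2.36 to 2.92 in fat. *Otc*, the next enzyme, had a margin of 7.28, and *Tdo2*, which opens the ring of tryptophan, had a margin of 8.03. *Ass1*, argininosuccinate synthase, varied among the livers, at 4.19, 4.82, 3.35 and 2.85, and its lowest liver lay within the range of BAT, 2.37, 2.46, 2.88 and 2.38. It was called (margin 1.28, adjusted p = 0.00137 against BAT), but the call was lost without liver 2, which left a margin of 0.95. *Bhmt*, betaine-homocysteine methyltransferase, was not called against every depot, at 2.92, 2.63, 2.60 and 2.82 in liver and 1.41 to 2.15 in fat, all below the median gene of the scale. Which probes lie behind the values of *Ass1* and *Bhmt* is not stated, so low values need not give their level in liver.

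Genes of glucose release and handling were liver-high in 10 of 13 cases. Set against eWAT, iWAT and BAT, list medians stood at 4.85, 4.90 and 3.72. *G6pc*, glucose-6-phosphatase, the last step of glucose release, measured 8.82, 8.41, 7.73 and 7.40 in liver and 2.17 to 2.58 in fat, with a margin of 5.67. The livers themselves spread over more than 1 log2 unit. *Fbp1*, fructose-1,6-bisphosphatase, had a margin of 7.45. *Pck1*, which commits oxaloacetate to glucose or glycerol synthesis, was the 1 member not called against any depot. It measured 10.63, 10.32, 10.35 and 9.76 in liver, 11.05, 11.05, 11.01 and 10.99 in BAT, 10.43, 10.76, 10.81 and 10.89 in iWAT and 9.97, 9.61, 10.15 and 10.04 in eWAT, and differed by 0.32 from eWAT (95% confidence interval -0.01 to 0.65), -0.46 from iWAT (-0.79 to -0.13) and -0.76 from BAT (-1.09 to -0.43).

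Cytochromes P450 of drug and steroid metabolism were liver-high in 19 of 23 cases. The list's median differences from eWAT, iWAT and BAT were 5.46, 5.48 and 5.41. *Cyp2d9*, a steroid hydroxylase, measured 9.22, 9.24, 9.38 and 9.14 in liver and 1.11 to 1.55 in fat, and *Cyp4a14*, a fatty acid hydroxylase and target of PPARα, 9.57, 9.42, 10.11 and 9.98 against 1.86 to 2.37. *Cyp4b1* went the other way, at 4.93, 4.94, 5.13 and 4.93 in liver and 6.68 to 7.95 in fat, with a margin of -2.12. Many P450 genes are close copies of each other, and single members are uncertain for that reason.

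**Figure D2:**
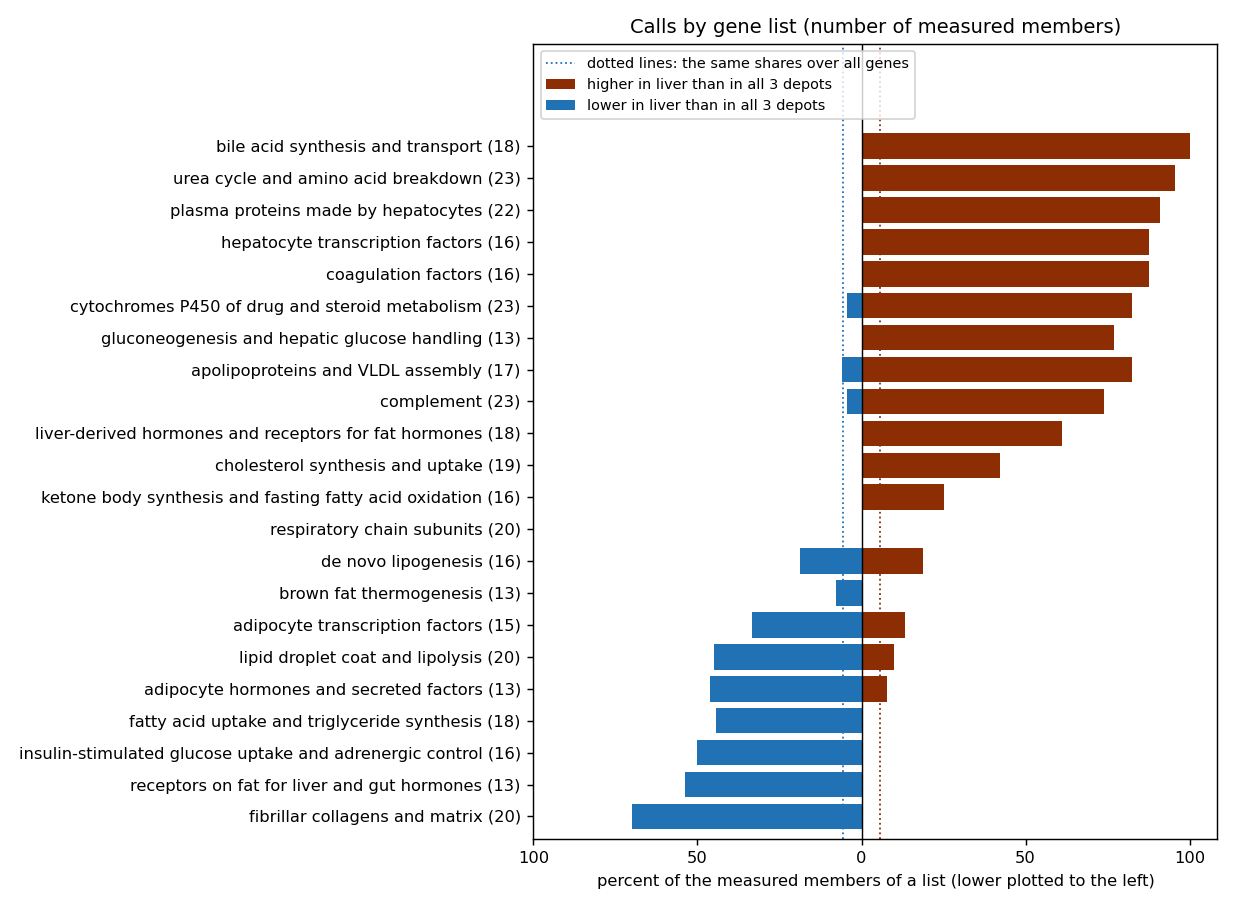
Share of the measured members of each gene list (x axis, percent, with the lower calls drawn to the left) that were higher (brown) or lower (blue) in liver than in all 3 depots. Dotted lines mark the shares over all genes, 5.73% and 5.62%; bile acid genes reach 18 of 18 to the right and the matrix list 14 of 20 to the left, while none of the 20 respiratory chain subunits is called against all 3 depots.

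Hepatocyte transcription factors followed, with 14 of 16 liver-high. Median differences were 4.53, 4.33 and 4.32 from eWAT, iWAT and BAT. *Hnf4a*, a nuclear receptor that maintains hepatocyte identity, measured 8.87, 8.84, 8.88 and 8.69 in liver and 2.58 to 2.94 in fat, a margin of 6.04. The drug receptors *Nr1i3* (CAR) and *Nr1i2* (PXR) had margins of 5.998 and 5.43. *Nr1h4*, the bile acid receptor FXR, had a margin of 5.50. With genes of low mean value left out of the test, 9 members of this list remained called, since fewer were tested.

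Promoter sequence was looked at because HNF1 and HNF4 factors are among the known regulators of the genes above. RefSeq promoters (GRCm38.p6, 250 bases before to 50 after the start) could be matched by symbol to 959 liver-high and 900 liver-low genes, and 5 strings were searched on both strands. The HNF1 string GTTAATNAT was present in 40 liver-high promoters (4.17%), in 2 liver-low promoters (0.222%) and in 0.94% of all 27025 genes with a promoter. The HNF4 string CAAAGTCCA was present in 23 liver-high promoters (2.40%), 6 liver-low promoters (0.667%) and 0.555% of all. The C/EBP string TTGCNNAA was found in 16.2%, 11.6% and 12.2% of the same sets. The string CCCNNGGGA, part of the EBF site, was found in 8.86%, 9.78% and 7.48%, and TATAAA in 15.8%, 12% and 15.7%. Longer forms of the HNF1 and EBF strings and a PPAR repeat had been searched before these 5 and are not printed. With the longer EBF string the liver-low share stood further above the liver-high one. Matches of different strings may overlap, and a match is a stretch of letters, not a measured binding site. The 250 bases before the start of *Gc*, *F13b*, *G6pc* and *Igfbp1* follow, because these liver-high genes are described here and hold the HNF1 string, which is in capitals. Its first base lies 52 bases before the start in *Gc*, 54 in *F13b*, 59 in *Igfbp1* and 221 in *G6pc*.
Gc, chr5:89457899-89458148, - strand: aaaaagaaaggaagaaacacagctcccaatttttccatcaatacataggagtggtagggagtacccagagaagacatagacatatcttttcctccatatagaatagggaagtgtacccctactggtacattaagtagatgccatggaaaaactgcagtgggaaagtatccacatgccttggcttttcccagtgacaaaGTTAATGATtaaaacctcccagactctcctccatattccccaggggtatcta
F13b, chr1:139501457-139501706, + strand: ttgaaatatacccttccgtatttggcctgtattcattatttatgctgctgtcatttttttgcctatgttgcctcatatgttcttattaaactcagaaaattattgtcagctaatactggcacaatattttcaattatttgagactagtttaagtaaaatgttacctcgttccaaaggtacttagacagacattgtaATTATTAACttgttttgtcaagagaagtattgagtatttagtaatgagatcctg
G6pc, chr11:101367466-101367715, + strand: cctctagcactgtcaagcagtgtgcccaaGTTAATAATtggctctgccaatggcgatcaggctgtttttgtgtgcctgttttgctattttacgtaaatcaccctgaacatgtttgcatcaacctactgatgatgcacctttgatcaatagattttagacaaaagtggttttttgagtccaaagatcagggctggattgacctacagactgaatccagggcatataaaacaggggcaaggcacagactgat
Igfbp1, chr11:7197537-7197786, + strand: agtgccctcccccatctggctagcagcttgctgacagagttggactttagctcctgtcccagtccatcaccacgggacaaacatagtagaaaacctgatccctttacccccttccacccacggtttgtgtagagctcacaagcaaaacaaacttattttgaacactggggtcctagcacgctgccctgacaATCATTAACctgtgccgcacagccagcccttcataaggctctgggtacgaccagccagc

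Among the genes lower in liver, the 12 with the largest margins were *Prkar2b*, *Aoc3*, *Fabp4*, *Lgals12*, *Tusc5*, *Ebf1*, *Aqp7*, *Adipoq*, *Arxes2*, *Plin1*, *Lpl* and *Cav1*, from -7.35 to -5.23. *Prkar2b*, a regulatory subunit of the cAMP-dependent kinase that triggers lipolysis, measured 1.94, 2.11, 1.98 and 2.13 in liver. In fat it measured 10.47, 10.44, 10.53 and 10.50 in BAT, 9.19, 9.64, 9.87 and 10.11 in iWAT and 9.39, 9.52, 9.24 and 9.42 in eWAT, a margin of -7.35 (SE 0.14, adjusted p = 4.96e-17 against eWAT). All 4 livers were near the floor of the scale and all 12 fat arrays far above it. *Aoc3*, a copper amine oxidase of the adipocyte surface, measured 2.23, 2.23, 2.04 and 2.11 in liver and 8.73 to 10.63 in fat. *Adipoq*, adiponectin, measured 2.57, 2.39, 2.57 and 2.35 against 7.79 to 8.72, and *Cav1*, the coat protein of caveolae, 2.28, 2.25, 2.35 and 2.58 against 7.49 to 9.30. *Lgals12*, a galectin of the lipid droplet, *Tusc5*, a regulator of glucose transporter vesicles, and *Arxes2*, an adipocyte protein of the endoplasmic reticulum, had margins of -6.62, -6.20 and -5.45.

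Of 13 measured adipocyte hormones and secreted factors, 6 were lower in liver than in every depot and 1 was higher. Against eWAT, iWAT and BAT the median member differed by -3.05, -2.88 and -1.65. *Lep*, leptin, measured 1.78, 1.97, 1.84 and 1.83 in liver and differed among the depots, at 7.10, 7.35, 6.13 and 6.63 in BAT, 10.12, 10.58, 10.34 and 10.53 in iWAT and 10.32, 10.63, 10.39 and 10.38 in eWAT. *Retn*, resistin, was likewise nearest to liver in BAT, with differences of -6.50, -7.43 and -4.76 between liver and eWAT, iWAT and BAT. *Angptl4*, an inhibitor of lipoprotein lipase made by both organs, was lower in liver with a margin of -1.65. *Sfrp5*, a secreted Wnt antagonist, was lower in liver than in both white depots but not BAT, where it measured 3.69, 2.97, 3.13 and 2.64 beside 2.68, 2.55, 2.64 and 2.32 in liver. *Agt*, angiotensinogen, was the member higher in liver, at 8.21, 8.19, 8.30 and 8.28 against 3.04, 2.85, 2.85 and 3.01 in BAT, 3.41, 3.04, 3.48 and 3.68 in iWAT and 5.37, 4.33, 5.34 and 5.11 in eWAT.

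Lipid droplet genes did not move as 1 group. Of 20 measured, 9 were lower in liver than in every depot, 2 were higher and 9 were neither. The median over its members was -1.16, -1.22 and -2.32 for eWAT, iWAT and BAT. *Plin1*, the coat protein of the adipocyte droplet, measured 3.24, 2.78, 3.08 and 2.91 in liver and 8.25 to 9.41 in fat, and *Plin4* had a margin of -2.74. *Plin2*, the coat protein found on droplets of most cells, measured 8.45, 8.49, 8.56 and 8.41 in liver and was called only against eWAT (9.55, 9.83, 9.72 and 9.79). It overlapped iWAT, at 8.30, 8.50, 9.13 and 9.23, with a difference of -0.31 (95% confidence interval -0.66 to 0.03), and differed from BAT by -0.60. *Plin5*, which ties droplets to mitochondria, lay between the white depots and BAT, at 6.02, 5.99, 6.30 and 5.88 in liver, 8.74, 8.88, 8.95 and 8.74 in BAT, 4.03, 4.90, 5.72 and 5.47 in iWAT and 4.04, 4.79, 4.82 and 5.16 in eWAT. Its calls against the white depots were narrow. The smaller of those 2 differences, 1.02, became 0.46 without iWAT 1 and 2 together, and fell short of 1 without liver 3 (0.93), iWAT 1 (0.69) or iWAT 2 (0.98) alone. The 2 members higher in liver were *Hsd17b13*, a droplet protein of hepatocytes, at 9.48, 10.14, 9.57 and 9.63 against 2.29 to 2.83, and *Fitm1*, which aids droplet formation, at 6.19, 6.09, 6.41 and 6.50 against 2.58 to 4.53. The highest fat values of *Fitm1* were BAT 2 and 3, the arrays with muscle markers, and *Fitm1* is known from muscle; the part of muscle was not tested.

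Of the lipases of the droplet, those described here were lower in liver. *Pnpla2*, adipose triglyceride lipase, measured 7.61, 7.53, 7.62 and 7.48 in liver and 10.56 to 11.10 in fat, and *Lipe*, hormone-sensitive lipase, had a margin of -2.06. *Pnpla3*, a relative of *Pnpla2*, was near the floor in liver, at 2.83, 2.75, 2.81 and 2.83, and measured 3.94 to 7.59 in fat. *G0s2*, the inhibitor of *Pnpla2*, was called against no depot, with differences of 0.97, 0.24 and -0.58 from eWAT, iWAT and BAT.

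Some genes best known from adipocytes were listed above the floor in these livers and varied from mouse to mouse. *Cidec*, which fuses droplets, measured 5.73, 7.27, 6.77 and 7.19 in livers 1 to 4, a range of more than 1 log2 unit, and between 10.37 and 11.26 in fat. *Cidea*, its relative in brown fat, measured 3.40, 4.93, 4.09 and 5.55 in liver, 10.94, 11.14, 11.10 and 11.19 in BAT, 4.92, 4.61, 5.70 and 4.69 in iWAT and 3.37, 3.42, 3.29 and 3.01 in eWAT. The livers overlapped both white depots and lay far below BAT. Liver 1 had the lowest value and liver 4 the highest for *Cidea*, as they did for *Fabp4*, the adipocyte fatty acid carrier, at 3.72, 5.33, 4.47 and 5.78, and for *Pparg*, the adipocyte master regulator, at 5.77, 6.24, 6.19 and 6.62. *Adipoq*, *Plin1* and *Lep* did not share this order, and liver 1 was the highest of the livers for *Plin1*. The SD among livers was 0.92 for *Fabp4*, 0.94 for *Cidea* and 0.71 for *Cidec*, against 0.12 for *Adipoq* and 0.20 for *Plin1*. *Scd1*, which makes monounsaturated fatty acids, split the livers otherwise, at 9.59, 7.58, 9.21 and 7.58, and stayed below fat (10.58 to 11.58) with a margin of -2.37. Other lists also varied among the livers. The mean of 6 markers of lipid-associated macrophages was 3.70, 3.94, 3.82 and 4.06 in livers 1 to 4 and that of 20 matrix genes 4.20, 4.44, 4.30 and 4.54, in the order of *Cidea*, *Fabp4* and *Pparg*. The mean of 7 Kupffer cell markers was 6.46, 5.82, 6.85 and 5.86. Their part in these values was not tested, and with 4 livers no relation was tested. Within-array percentile ranks, with a minimum of 10 points, kept *Cidec*, *Cd36*, *Scd1*, *Pnpla2* and *Angptl4* below every depot but short of the minimum against at least 1.

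**Figure D3:**
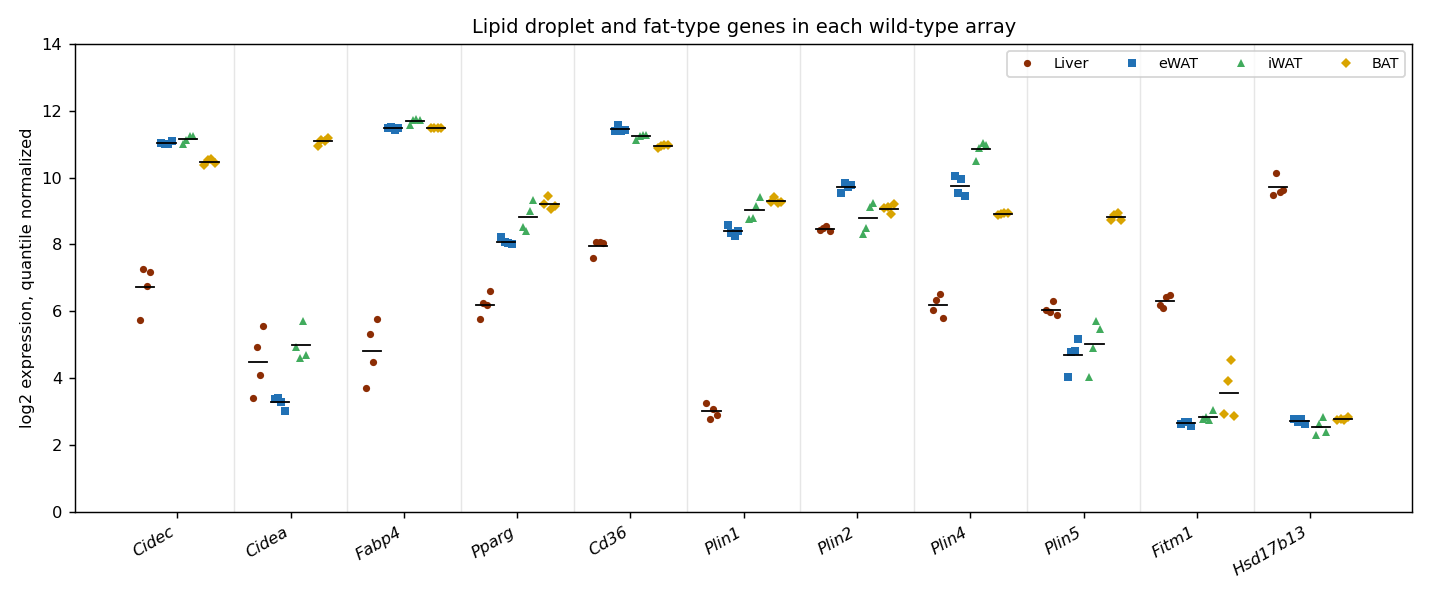
Log2 expression (y axis) of 11 droplet and fat-type genes (x axis) in the 16 wild-type arrays, with a point for each array and a line at each tissue mean. The livers spread for *Cidec*, *Cidea* and *Fabp4* but not for *Plin1*; *Hsd17b13* and *Fitm1* lie above all fat arrays, and *Plin5* lies between the white depots and BAT.

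Of 15 adipocyte transcription factors, 5 were lower in liver than in every depot and 2 were higher. Set against eWAT, iWAT and BAT, list medians stood at -0.43, -0.08 and -0.79. *Ebf1*, an early B cell factor that drives adipocyte genes, measured 2.05, 2.02, 2.29 and 2.26 in liver and 7.60 to 9.60 in fat, and *Ebf2*, a factor of brown and beige fat, had a margin of -1.60. *Pparg* was lower with a margin of -1.88. *Klf15*, a factor of fasting amino acid use, and *Rxra*, the shared partner of many nuclear receptors, were the 2 members higher in liver, with margins of 2.26 and 1.88.

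Of 18 genes of fatty acid uptake and triglyceride synthesis, 8 were lower in liver than in every depot and 0 higher. The list's median differences from eWAT, iWAT and BAT were -0.27, -0.44 and -1.59. Several uptake genes were lower. *Lpl*, lipoprotein lipase, measured 3.05, 3.29, 3.69 and 3.18 in liver and 8.46 to 9.08 in fat, and *Gpihbp1*, which carries it across capillaries, had a margin of -2.69. *Cd36*, a fatty acid translocase, measured 7.60, 8.06, 8.07 and 8.04 in liver and 10.89 to 11.58 in fat, a margin of -2.998, and *Slc27a1*, a fatty acid transport protein, had one of -2.96. *Dgat2*, an esterifying enzyme, which forms triglyceride, measured 9.01, 9.26, 8.95 and 9.15 in liver, 9.32, 9.97, 9.26 and 9.69 in eWAT and 8.55, 9.58, 9.42 and 10.12 in iWAT, and its differences of -0.47 (95% confidence interval -0.98 to 0.03) and -0.33 (-0.83 to 0.18) were not called, unlike -1.84 from BAT. *Gyk*, glycerol kinase, measured 7.59, 7.67, 7.88 and 7.71 in liver and 6.97, 8.69, 8.06 and 8.45 in BAT, against 3.41, 4.30, 3.64 and 3.75 in eWAT and 3.09, 2.93, 2.82 and 2.97 in iWAT. Liver and BAT overlapped for *Gyk*, and both lay above all white fat arrays.

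Of 16 genes of insulin-stimulated glucose uptake and adrenergic control, 8 were lower in liver and 0 higher. Median differences were -0.96, -1.5 and -2.47 from eWAT, iWAT and BAT. *Slc2a4*, the insulin-responsive glucose transporter, measured 2.72, 2.99, 3.19 and 2.70 in liver, 7.99, 7.95, 7.39 and 7.65 in BAT, 5.35, 5.28, 5.93 and 5.86 in iWAT and 5.68, 5.38, 5.16 and 4.65 in eWAT. *Tbc1d4*, the Rab GTPase-activating protein that holds its vesicles back, had a margin of -2.62. *Adrb3*, the β3-adrenergic receptor, measured 4.08, 4.19, 4.38 and 4.28 in liver, 6.40, 7.31, 6.81 and 6.77 in BAT, 5.78, 4.50, 6.66 and 6.32 in iWAT and 6.37, 5.34, 5.86 and 5.87 in eWAT, and its lowest fat value was iWAT 2. *Adcy3*, adenylyl cyclase 3, had a margin of -2.28.

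*Bdh1*, which interconverts acetoacetate and 3-hydroxybutyrate, was higher in liver and *Oxct1* lower. *Bdh1* measured 7.82, 8.10, 7.89 and 7.85 in liver and 1.83 to 2.58 in fat, a margin of 5.54. *Oxct1*, the transferase needed to use ketone bodies, measured 2.92, 2.89, 2.98 and 3.14 in liver and 7.52 to 8.94 in fat, a margin of -4.84. *Cpt1a*, the carnitine transferase of liver mitochondria, was liver-high with a margin of 1.33. Over the 16 measured genes of ketone synthesis and fasting fatty acid oxidation, 4 were higher in liver than in every depot, 0 were lower and 12 were neither. By depot, 12 were higher in liver than in eWAT and 10 than in iWAT, but 5 were higher and 7 lower than in BAT. Over all genes, 10.6%, 10.5% and 8.60% were higher in liver than in eWAT, iWAT and BAT, and 11.1% were lower than in BAT. The list's median member differed by 1.56, 1.68 and -0.61 from eWAT, iWAT and BAT.

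Respiratory chain subunits stood between white and brown fat. All 20 were lower in liver than in BAT, where 11.1% of all genes were, and the median difference was -1.74. Against eWAT and iWAT 10 were higher each and 0 lower, with median differences of 0.96 and 0.97, and 9 were higher than in both white depots and lower than in BAT at once. *Uqcrc1*, a core subunit of complex III, measured 8.53, 8.54, 8.49 and 8.51 in liver, 10.33, 10.32, 10.37 and 10.27 in BAT, 7.16, 7.22, 7.61 and 7.43 in iWAT and 7.28, 7.29, 7.35 and 6.95 in eWAT. The arrays of the 4 tissues fell in 3 separate bands, with the white depots overlapping. *Sdhb*, the iron-sulphur subunit of complex II, showed the same bands, with differences of 1.27, 1.32 and -2.05 from eWAT, iWAT and BAT. Of 13 genes of brown fat thermogenesis, 11 were lower in liver than in BAT and 1 was lower than in every depot. *Ucp1*, the uncoupling protein of brown fat, measured 2.25, 2.41, 2.17 and 2.26 in liver and 11.32, 11.44, 11.28 and 11.44 in BAT.

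**Figure D4:**
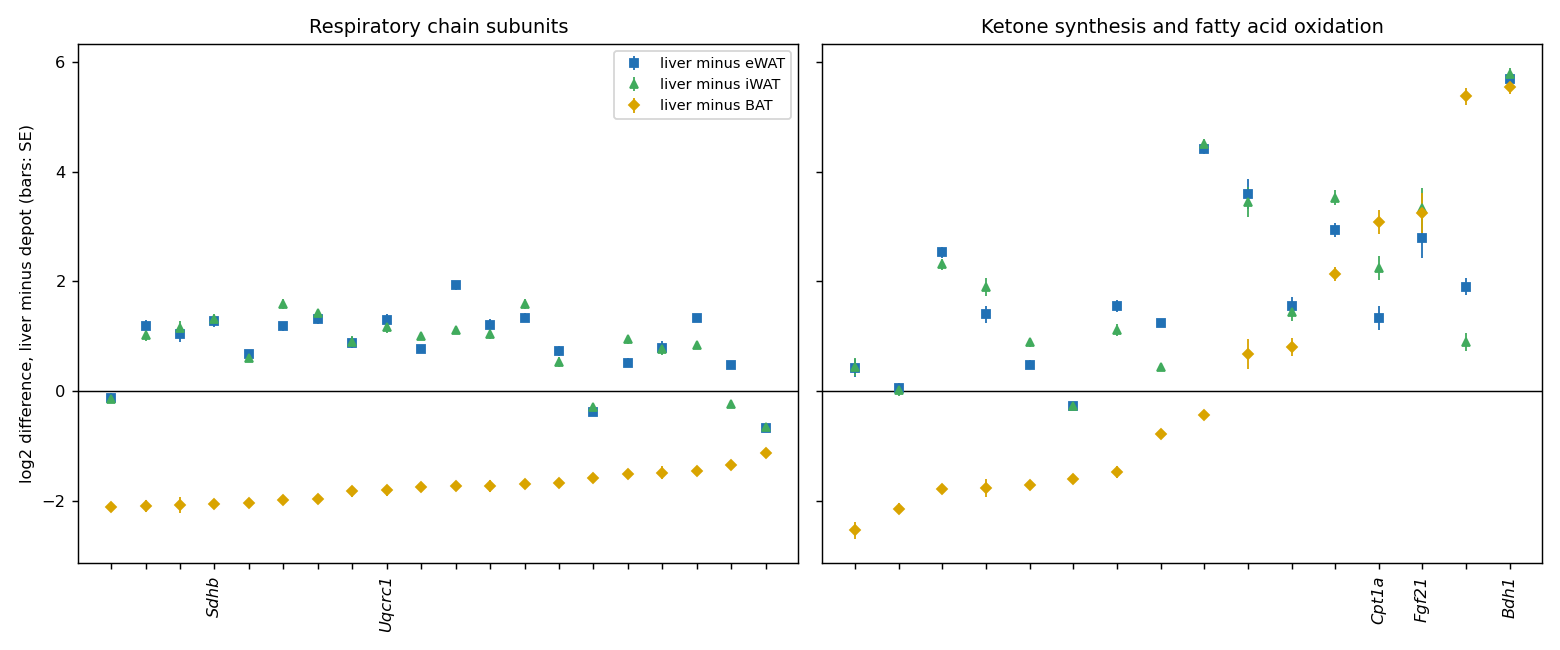
Log2 difference between liver and each depot (y axis, bars are standard errors) for 20 respiratory chain subunits (left) and 16 genes of ketone synthesis and fatty acid oxidation (right), ordered by the difference from BAT, with names for the genes described in the text. All 20 subunits lie below 0 against BAT, while most lie above 0 against eWAT and iWAT; on the right *Bdh1* is far above 0 against all 3 depots.

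Liver shared a set of genes with BAT: 446 genes (1.81%) were higher in liver and in BAT than in both white depots. The count depends on scale, with 188 on the values as deposited and 714 on within-array percentile ranks. Between liver and BAT, 301 of these were not called, 72 were higher in liver and 73 lower. *Elovl3*, an elongase of very long fatty acids, measured 8.14, 7.59, 7.91 and 7.39 in liver and 7.59, 7.21, 8.30 and 8.24 in BAT, against 1.90, 2.16, 2.02 and 1.85 in eWAT and 1.86, 1.88, 1.84 and 1.72 in iWAT. Liver and BAT overlapped, with a difference of -0.07 (95% confidence interval -0.51 to 0.36). *Pank1*, which starts coenzyme A synthesis, measured 8.84, 8.84, 8.93 and 8.95 in liver and 8.93, 8.85, 8.71 and 8.93 in BAT and 2.85 to 3.21 in the 8 white fat arrays. *Kng2*, a kininogen, measured 8.76, 8.87, 8.70 and 8.93 in liver and 8.96, 8.82, 8.27 and 8.66 in BAT, against 1.80 to 3.68 in white fat. *Slc27a2*, an acyl-CoA synthetase for very long chains, lay above all BAT arrays in liver but missed the minimum, with a difference of 0.94. *Pon1*, a paraoxonase of high-density lipoprotein, and *Cpn2*, a subunit of carboxypeptidase N, were higher in liver than in BAT as well, by 2.92 and 1.26.

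For 164 genes (0.665%) liver was called above 1 depot and below another. In 119 of them liver lay above a white depot and below BAT. *Cidea* had the widest span. *Adck3*, which supports coenzyme Q synthesis, measured 6.89, 6.52, 6.68 and 6.62 in liver, 3.80 to 4.75 in white fat and 9.48, 9.23, 9.22 and 8.80 in BAT. *Anpep*, aminopeptidase N, ran the other way, at 8.58, 8.69, 8.70 and 8.68 in liver, 5.14, 5.19, 5.001 and 5.16 in BAT, 7.12, 6.84, 7.43 and 8.06 in iWAT and 9.85, 10.08, 9.91 and 9.96 in eWAT. *Qpct*, glutaminyl cyclase, followed the same order as *Anpep*, with differences of -1.42, 1.77 and 3.24.

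Related genes were listed in pairs of a known liver form and another form, chosen with earlier results of these data known. Of 20 pairs of enzymes or transporters with both members measured, 16 had the liver form higher in liver than in every depot. The other form was lower in 13, and 10 had both. On within-array percentile ranks 8 had both. The fatty acid carriers *Fabp1* and *Fabp4* had margins of 8.67 and -6.66. The glucose transporters *Slc2a2* and *Slc2a4* had margins of 5.98 and -2.32. For pyruvate kinase, *Pklr* measured 7.63, 8.43, 7.71 and 7.88 in liver and 2.98 to 3.52 in fat, and *Pkm* 5.51, 5.55, 5.70 and 5.57 in liver and 8.08 to 9.81 in fat. In each of these pairs every liver lay on the opposite side of fat for the 2 forms. With margins in parentheses, the same crossing held for the lipases *Lipc* (5.04) and *Lpl* (-5.28) and for the glycerol channels *Aqp9* (5.05) and *Aqp7* (-5.71). It also held for *Gys2* (1.53) and *Gys1* (-2.15), the glycogen synthases, and for *Slc27a5* (6.84), which activates bile acids and fatty acids, and *Slc27a1* (-2.96). The pair *Mat1a* (7.75) and *Mat2a* (-1.04), which make S-adenosylmethionine, was at the limit, and *Mat2a* fell short of the minimum without any 1 of liver 4 (-0.90), eWAT 2 (-0.99), eWAT 3 (-0.98) and BAT 2 (-0.97). *Scd1* and *Scd2* did not cross, since both were lower in liver.

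**Figure D5:**
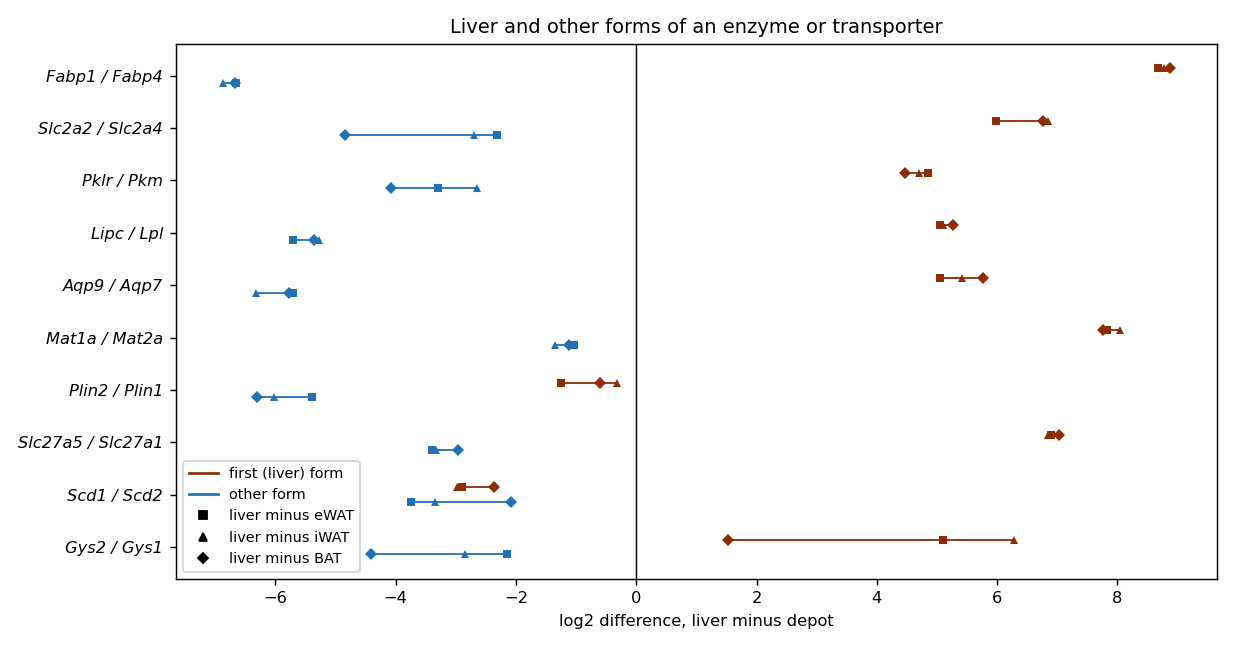
Log2 difference between liver and each of the 3 depots (x axis) for the 10 pairs of related genes that are named in the text (y axis), the liver form in brown and the other form in blue, with a symbol for each depot and a line over their range. In 8 of them both forms are called and lie on opposite sides of 0, as *Fabp1* and *Fabp4* do, while *Scd1* and *Scd2* both lie below 0.

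Of 16 lipogenic genes, 3 were higher in liver than in every depot and 3 lower, and 9 were lower in liver than in BAT. Against eWAT, iWAT and BAT the median member differed by 0.17, 0.66 and -1.69. *Fads2*, the desaturase of polyunsaturated fatty acids, measured 9.35, 9.77, 9.59 and 9.61 in liver and 4.22 to 5.52 in fat, whereas *Scd2* measured 4.12, 4.37, 4.01 and 4.32 against 5.80 to 8.78. Of 19 genes of cholesterol synthesis and uptake, 8 were higher in liver and 0 lower. The median over its members was 1.23, 1.53 and 0.94 for eWAT, iWAT and BAT.

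Genes for hormones and their receptors were found on both sides. Of 18 genes for liver hormones and liver receptors, 11 were liver-high and 0 lower. Set against eWAT, iWAT and BAT, list medians stood at 2.86, 3.37 and 3.65. *Hamp*, hepcidin, which controls iron export, measured 10.87, 10.80, 11.05 and 11.01 in liver and 4.95, 4.60, 1.72 and 1.98 in iWAT, where only iWAT 1 and 2, the arrays with lymphocyte markers, lay above the other fat arrays. The part of lymph node tissue in that was not tested. *Fgf21*, a fasting hormone, measured 5.25, 7.08, 5.20 and 7.21 in the livers and 2.75 to 3.71 in fat, and *Igfbp1*, a fasting-induced binding protein of insulin-like growth factors, 8.64, 7.75, 6.19 and 6.86 against 2.17 to 2.73. Both varied more among livers than *Igfbp2* (8.69, 8.47, 8.61 and 8.63). *Inhbe*, a hepatokine subunit that forms activin E, measured 7.79, 8.07, 7.94 and 8.18 in liver and 2.05 to 2.44 in fat, and *Acvr1c*, the receptor ALK7 through which activin E acts on adipocytes, 2.07, 2.09, 2.15 and 2.19 in liver and 5.77 to 7.58 in fat. *Gcgr*, the glucagon receptor, had a margin of 4.10.

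Of 13 receptors on fat, 7 were lower in liver and 0 higher. The list's median differences from eWAT, iWAT and BAT were -1.98, -2.35 and -1.05. *Npr3*, the clearance receptor of natriuretic peptides, measured 3.60, 3.83, 3.53 and 3.70 in liver and 6.90 to 10.26 in fat. *Ffar4*, a receptor for long-chain fatty acids listed as *O3far1*, had a margin of -2.47. *Klb*, the co-receptor of FGF21, was called against no depot, with differences of 0.54 (95% confidence interval 0.08 to 0.996), 0.49 (0.03 to 0.95) and 0.26 (-0.20 to 0.73) from eWAT, iWAT and BAT. *Gpr146*, the receptor deleted in the littermates, measured 6.42, 6.53, 6.46 and 6.44 in liver, 5.43, 5.65, 5.61 and 5.84 in BAT, 4.95, 5.17, 6.38 and 6.06 in iWAT and 5.12, 5.59, 5.31 and 5.83 in eWAT. On this scale every liver lay above every fat array, as held for 15.5% of all genes. As deposited, iWAT 3 and 4, at 6.58 and 6.37, lay above all 4 livers (6.17, 6.32, 6.21 and 6.19). On the common scale the differences of 0.999 (SE 0.24), 0.82 and 0.83 did not reach the minimum of 1 and none was called. Without iWAT 1 and 2, the arrays with lymphocyte markers, the iWAT difference was 0.25 and that from eWAT 1.02, and the part of lymph node tissue was not tested.

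Cells other than hepatocytes and adipocytes also told the tissues apart, and on bulk arrays fewer cells of a type and less RNA per cell cannot be told apart. Of 7 markers of Kupffer cells, the resident macrophages of liver, 4 were liver-high. Against single depots, 1 of the 7 was lower in liver than in eWAT, 1 than in iWAT and 0 than in BAT. *Clec4f* measured 7.07, 6.48, 7.05 and 6.54 in liver and 2.60 to 3.11 in fat, and *Cd5l* had a margin of 4.33. Of 6 general macrophage markers 0 were higher in liver, and *Cd68* measured 5.45, 5.41, 5.63 and 5.45 in liver, 5.66, 5.14, 5.27 and 5.52 in BAT, 8.51, 8.003, 8.77 and 9.44 in iWAT and 11.06, 10.97, 11.17 and 11.05 in eWAT, so that liver and BAT overlapped below the white depots. Of 6 markers of liver sinusoidal endothelium 3 were liver-high, with margins of 4.44 for *Clec4g* and 3.28 for *Stab2*. By depot, 2 of the 6 were lower in liver than in eWAT, 2 than in iWAT and 0 than in BAT. All 5 general endothelial markers were lower in liver, *Pecam1* with a margin of -2.80. Stellate cell markers divided, with 3 higher and 2 lower of 7. Markers of adipose fibroblasts were lower in 4 of 6 cases and higher in 1, and those of bile duct cells higher in 1 of 6. By depot, 4 of 5 mesothelium markers were lower in liver than in eWAT and 0 were lower than in iWAT or BAT. Of 7 pancreas markers 1 was lower in liver than in eWAT, and of 5 epididymis markers 0 were called against any depot.

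Matrix genes were lower in liver in 14 of 20 cases and higher in 0. Median differences were -3.0, -2.77 and -1.67 from eWAT, iWAT and BAT. *Col1a1*, a chain of type I collagen, measured 4.29, 4.78, 4.51 and 5.05 in liver, 6.81, 6.28, 6.15 and 6.07 in BAT, 7.36, 7.08, 8.28 and 8.18 in iWAT and 8.99, 8.75, 8.15 and 8.74 in eWAT. *Sparc*, a collagen-binding matricellular protein, had a margin of -3.90 and *Lox*, which crosslinks collagen, -3.41. *Fn1*, fibronectin, which hepatocytes secrete into plasma, was higher in liver than in iWAT and BAT and not called against eWAT, at 10.01, 10.07, 10.07 and 9.999 in liver and 10.18, 9.94, 9.71 and 10.06 in eWAT, a difference of 0.07 (95% confidence interval -0.19 to 0.32), with 7.57, 7.33, 7.46 and 7.32 in iWAT and 4.74, 5.05, 5.26 and 4.69 in BAT.

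Some liver-high genes were neighbours. Along the RefSeq annotation, 196 of 1381 liver-high genes with a place lay in 50 runs of 3 or more neighbours, against 47 of 1348 liver-low genes in 15 runs. The longest, of 11, was the *Cyp2c* cluster on chromosome 19, followed by 9 *Mup* genes on chromosome 4 and 8 *Ugt2* genes on chromosome 5. Other runs held genes that are not near-identical copies of each other. Examples are the fibrinogen chains *Fgg*, *Fga* and *Fgb* with *Lrat* on chromosome 3, and *Apoa1*, *Apoc3*, *Apoa4* and *Apoa5* on chromosome 9. How far probes shared between close copies add to such runs was not tested.

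Of 515 microRNA genes on the array, 8 were higher and 8 lower in liver than in every depot, a share of 1.55% each, below those over all genes. The array reads the gene region and not the mature microRNA. *Mir122a*, the gene of the liver microRNA miR-122, measured 4.03, 3.74, 3.04 and 3.38 in liver and 1.59 to 2.29 in fat. *Mir27a* measured 3.09, 2.76, 3.30 and 3.38 in liver and 3.75 to 5.89 in fat. The mature forms of *Mir27a* in RefSeq (GRCm38.p6, + strand) follow, with the seed, bases 2 to 8, in capitals.
mmu-miR-27a-5p, chr8:84208685-84208706: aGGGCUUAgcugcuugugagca
mmu-miR-27a-3p, chr8:84208727-84208747: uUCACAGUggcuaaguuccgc

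The comparison was repeated in the 16 *Gpr146*-/- arrays, normalized and fitted on their own. The titles of the 4 knockout livers name both genotypes, while their other labels say knockout. Deposited *Gpr146* values were 4.50, 4.26, 4.63 and 4.41 in these livers and 6.17, 6.32, 6.21 and 6.19 in the wild-type livers, with no overlap, and 0 pairs of liver arrays held identical values. There 1419 genes (5.76%) were higher and 1437 (5.83%) lower in liver than in every depot. Of the wild-type calls, 1241 of 1411 liver-high genes (88.0%) and 1177 of 1385 liver-low genes (85.0%) were called in the same direction, and 0 in the opposite one. All 12 leading genes on each side were called again, with margins of 8.32 to 9.78 and -8.41 to -4.64. The shares are read as repeats of the tissue difference in other mice on the same diet, and no effect of genotype was tested. The knockout arrays were deposited in the same tables as the wild-type ones, so the repeat cannot tell tissue and table apart.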

How the data were processed

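RNA from liver, eWAT, iWAT and BAT was measured on Affymetrix GeneChip Mouse Gene 2.1 ST arrays, 4 mice for each genotype and tissue. The authors deposited 1 table of log2 values per tissue, 1 value per gene symbol and array, each table on its own scale. The software, the normalization and the rule for combining probe sets are not given in the sources used here, nor are intensities or detection calls, so the number of arrays limits the precision. For 840 genes the identifier is not a whole number, which was read as an average over probe sets. The value of a single gene therefore need not give its level in a tissue. All columns of array values were mapped to samples.

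The 16 wild-type arrays were joined by symbol (24646 genes) and quantile normalized together. Four-group linear models were fitted with limma 3.58.1 in R 4.3.3, with contrasts of liver against each depot, and p-values adjusted by Benjamini-Hochberg over all genes. A call required an adjusted p below 0.05 and a log2 difference of at least 1, and the calling was tested on simulated data. An SD is over the 4 arrays of a tissue. An SE is that of a difference in the fit, with the variance shared over the 16 arrays and between genes. Intervals are 95% and unadjusted. Tables and figures used pandas 2.3.3, numpy 2.4.6 and matplotlib 3.10.9.

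Genes were named by rule. These were *Gpr146*, the 12 genes with the largest margins on each side, up to 4 members of each pathway list with the largest margins towards its side and every member called to the other side, and any member of the lists on lipid droplets, fatty acid uptake, hormones and receptors, of the enzyme pairs and of the cell markers. The 6 leading genes shared with BAT and the 4 with the widest span between depots completed the rule. Chosen after their values were seen were *Trf*, *Hp*, *Rbp4*, *Apoc1*, *Apoe*, *F7*, *F13b*, *C3*, *Cyp7a1*, *Abcb11*, *Cyp27a1*, *Otc*, *Bhmt*, *Ass1*, *Oxct1*, *Adrb3*, *Adcy3*, *Col1a1*, *Fn1*, *Uqcrc1*, *Sdhb*, the microRNA genes, the genes of neighbour runs and those whose promoters are printed. Single values of some list members are not reported here. The comparison, the lists and the pairs were chosen with earlier results of these data known.

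Symbols were matched to RefSeq, 21227 by their current name and 2280 by an earlier one, leaving 1139 unmatched. Alternatives were percentile ranks, 2 other scalings, a trended prior, array weights, dim genes left out, a replicate block, the methods' t-test, other minimum differences, all 32 arrays in 1 fit and each array left out. Leaving out the 2 iWAT arrays with lymphocyte markers, the 2 BAT arrays with muscle markers, or both, was added after the data were seen.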

Additional observations from a re-analysis of the deposited data

Results flagged for a closer look

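Among 556 groups of 4 arrays examined for the genes described, 23 (4.14%) held an array whose gap to its nearest neighbour passed Dixon's critical value for 4 values, and chance alone gives about 1 in 20. In liver, the array standing apart was liver 1 for *Alb* (11.87), *Cpt1a* (9.24), *Cd36* (7.60) and *Anpep* (8.58), liver 2 for *Cyp7a1* (7.42) and *Mat1a* (10.59), and liver 3 for *Cyp4b1* (5.13) and *Tusc5* (3.80). In eWAT it was eWAT 1 for *Cyp7a1* (2.05), eWAT 2 for *Ucp1* (3.05), and eWAT 3 for *Mug1* (1.46) and *Pank1* (3.06). In iWAT it was iWAT 1 for *Gc* (2.28) and *Fads2* (5.27), iWAT 2 for *Cfd* (9.93) and *Cyp7a1* (1.98), iWAT 3 for *Lpl* (8.89), and iWAT 4 for *Klb* (6.87) and *Pank1* (2.85). In BAT it was BAT 3 for each of *G6pc* (2.17), *Oxct1* (8.86), *Adcy3* (7.69) and *Hamp* (1.59), the array with the highest muscle markers. All these values are log2 expression. For *Alb* the other livers all measured 12.05, the ceiling of the scale, so that flag follows from the scale.

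For 7 of the genes named in the text the difference between liver and a depot changed sign between eWAT and BAT, and limma called both differences and the one between the depots. The difference BAT minus eWAT was 7.82 for *Cidea*, 5.21 for *Adck3*, 4.12 for *Plin5*, 3.32 for *Sdhb* and 3.11 for *Uqcrc1*, with liver in between. It was -4.83 for *Anpep* and -4.66 for *Qpct*, again with liver in between.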

How the results depend on the processing

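The comparison was repeated under 30 settings, and 0 genes called higher or lower in liver took the opposite call in any. With 1 array left out in turn, 1402 to 1433 genes were higher and 1366 to 1405 lower in liver, and 25 named genes lost their call under at least 1 setting. Percentile ranks with a minimum of 10 points gave 2025 higher and 2225 lower, 714 shared with BAT, and 9081 and 7752 called against eWAT and BAT. There *Rbp4*, *Apoc1*, *Cyp27a1*, *Gys2*, *Cpt1a*, *Pon1*, *Cpn2*, *Pltp*, *Angptl4*, *Cidec*, *Pnpla2*, *Cd36*, *Scd1*, *Mat2a*, *Uqcrc1* and *Sdhb* kept their direction and fell short of the minimum. The deposited scale gave 188 genes shared with BAT, 1105 higher and 1648 lower, and equal medians gave 1284 and 1490. Fewer genes pass a higher minimum by construction. With no minimum, 4362 genes were higher, 4266 lower, 2521 shared with BAT, and 15884, 15927 and 14945 called against eWAT, iWAT and BAT. With a minimum of 2 these were 732, 379, 66, 2331, 2257 and 1770. Without dim genes 1077 were higher and 1341 lower, and with the methods' t-test 1400 and 1382. The replicate block gave 1412 higher, 1388 lower, 446 shared with BAT, and 5792, 5902 and 4865 called against eWAT, iWAT and BAT. Deviations of same-numbered arrays of different tissues had correlations of -0.026 to 0.125 (median 0.037, 24 pairs), against a median of -0.01 for arrays of other numbers. These values do not settle whether the numbers pair the arrays, and the main fit treated them as unpaired. Of 1320 list counts, 24 moved by over 1.5 times. Where the cause of a change is not named, it was not tested.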
